A study of Mus musculus with 30 samples.

Results

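Pressure overload of the non-transgenic mouse heart was described across all genes, from the 15 non-transgenic libraries among the 30 libraries of the series. They were chosen by their labels: 10 hearts after transverse aortic constriction (TAC) and 5 hearts after a Sham operation, all of the genotype NTG, which carries no transgene and is named wild type in the sample titles. TAC is a surgical narrowing of the aorta that forces the left ventricle to pump against a raised pressure, and the series gives its duration as 8 weeks. The tissue was heart muscle of the left ventricle, with 1 library per sample, called a heart here. The other 15 libraries came from hearts with a human relaxin receptor transgene (hRXFP1, here TG), 10 after TAC and 5 after Sham, and served to estimate the spread of each gene and for 1 comparison at the end. Strain, age and sex of the mice are not given in the sources used here, and nothing says that the libraries of a group came from separate litters or days, so a p-value measures the spread between these libraries.

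A ventricle under chronic pressure load thickens its wall, and its muscle cells return to a fetal pattern of contractile and hormone genes while fibroblasts lay down matrix. The healthy adult ventricle takes most of its energy from fatty acid oxidation in mitochondria, and hypertrophied hearts are known to move towards other fuels. Nppa, Acta1 and Postn stand for hormone release, the fetal sarcomere and activated fibroblasts in this setting.

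The libraries carried the transcripts of ventricular muscle. Myh6, the fast heavy chain of adult ventricular myosin, had 7844 to 21800 CPM (counts per 1e6 counts of the library) in the TAC libraries and 19170 to 24440 CPM in the Sham libraries. The atrial genes Myl7, Sln and Bmp10 stayed at or under 0.205 CPM in all 15, while the atrial gene Myl4 had 1.315 to 3.121 CPM. Sham replicate 5 stood apart: the summed level of 30 thymus and T cell genes was 996 CPM there, against 292.8 to 360.2 CPM in the TAC libraries and at most 349.6 CPM in the other 4 Sham libraries. Rag1, which cuts antigen receptor genes in developing lymphocytes, had 44.8 CPM in Sham replicate 5, 3.06 CPM in TAC replicate 1 and 2.42 CPM in Sham replicate 4. Every result was therefore computed with and without Sham replicate 5, and genes named as having risen or fallen passed in both fits unless a sentence says otherwise. These marker levels are per library total, as are the summed levels of marker lists given further on. All other CPM given from here on were scaled by TMM, unless a sentence says otherwise.

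Of 13588 tested genes, 1286 rose after TAC (9.46%) and 1104 fell (8.12%) at an adjusted p under 0.05, by edgeR's quasi-likelihood test fitted to all 30 libraries with Benjamini-Hochberg adjustment. The fold was at least 2 for 290 of the genes that rose and 108 of those that fell, and the median log2 fold change over all tested genes was 0.0018. Without Sham replicate 5 the counts were 1023 rising (7.49%) and 828 falling (6.06%) of 13655 genes, and 925 of the 1286 and 770 of the 1104 genes passed again in the same direction. Leaving out Sham replicate 1, 2, 3 or 4 instead gave 907, 912, 963 and 891 rising and 767, 753, 723 and 653 falling genes. Each of these counts was lower than the count without Sham replicate 5. A second fit, restricted to the 15 NTG libraries, called 132 rising (0.993%) and 86 falling (0.647%) of 13294 genes. That fit without Sham replicate 5 called 4 rising (0.0299%) and 5 falling (0.0374%). Why these counts were lower was not tested. With 1 surrogate variable as a term, 112 genes rose and 100 fell.

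**Figure D1:**
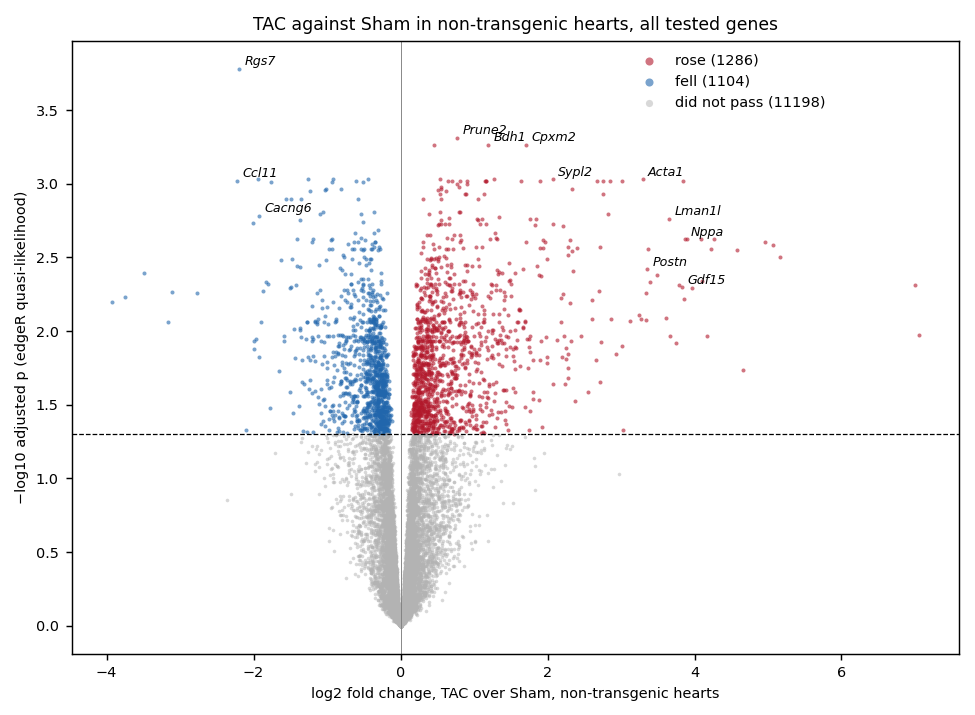
Each point is 1 of 13588 tested genes, with the log2 fold change of TAC over Sham in non-transgenic hearts on the x axis and −log10 of the adjusted p on the y axis, and the dashed line marks the threshold of 0.05. Red points rose (1286), blue points fell (1104) and grey points did not pass, and the rises reach larger folds than the falls.

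The TAC hearts differed among themselves more than the Sham hearts did. The SD of log2 CPM over libraries had a median over genes of 0.222 in TAC and 0.154 in Sham hearts, and it was larger in TAC hearts for 72.5% of genes. The TG hearts that shared the fit varied less than the NTG TAC hearts, with a median SD of 0.159 after TAC and 0.14 after Sham. Of the 1286 genes that rose, 96.3% lay above the highest Sham heart in TAC replicates 2 and 3, but 34.1% did so in TAC replicate 1 and 42.8% in TAC replicate 7. The genes that fell gave the same picture, with 96.1% below the lowest Sham heart in TAC replicate 10 and 32.7% in TAC replicate 1. A limma voom fit with its own weight for each group, which allows TAC hearts a larger spread, called 1150 rising and 1311 falling genes.

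**Figure D2:**
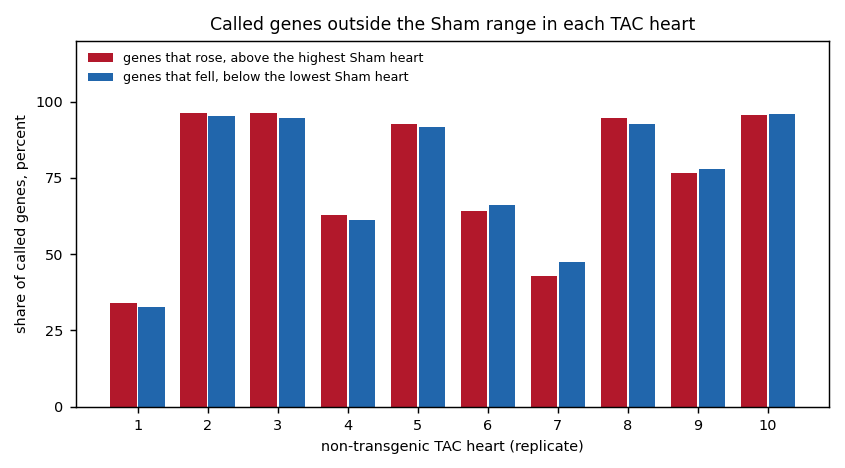
Bars give, for each of the 10 non-transgenic TAC hearts, the share (percent) of the 1286 rising genes above the highest Sham heart (red) and of the 1104 falling genes below the lowest Sham heart (blue). Replicates 2, 3, 5, 8 and 10 reach at least 91.6% for both and replicates 1 and 7 at most 47.4%, with genes that were called on these same hearts.

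The number in each library's name, which the labels do not explain, was 100 or more in 3 of 10 TAC and 4 of 5 Sham libraries. With this split as a term, 1053 genes rose and 671 fell. Among these 7 libraries alone no gene passed in either direction by the same edgeR test, with 1700 genes higher and 1324 lower at an unadjusted p under 0.05. Of the genes called in the fit of all 30, 1217 of 1217 rising and 1087 of 1094 falling genes with a value in these 7 libraries kept their sign, with a median log2 fold change of 0.56 for the rising genes and -0.44 for the falling genes. The same 7 libraries entered the fit of all 30, so that agreement in sign is not independent. Sham replicate 5, numbered 27, was the only Sham library under 100, in NTG or TG hearts. The fit without it leaves no Sham library under 100, and the 7 libraries leave it out too. The checks by number and the check without replicate 5 are therefore not independent. What the number stands for, and its part in the result, was not tested.

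The hormone gene Nppa, which encodes atrial natriuretic peptide, had 386 to 9455 CPM with a median of 3636 in TAC hearts, against 239, 460.5, 258, 296 and 257 CPM in Sham hearts. The lowest TAC heart, replicate 1, lay under the highest Sham heart, and the other 9 lay above it. TAC replicates 2, 3, 5, 8 and 10 lay between 5661 and 9455 CPM and the other 5 between 386 and 1609.7 CPM. The log2 fold change was 3.87 ± 0.75 (SE, adjusted p = 0.00238). Gm13054 on the opposite strand overlaps 61.5% of the exon bases of Nppa, and since the strand setting of the authors' counting is not given, its count is uncertain to that extent.

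Acta1, the skeletal form of alpha-actin that the fetal heart also uses, had 1166 to 14703 CPM with a median of 7865 in TAC hearts and 1301, 845, 550.2, 589 and 655 CPM in Sham hearts. Only TAC replicate 7 lay within the Sham range. Its log2 fold change was 3.30 ± 0.52 (adjusted p = 0.000931). Postn, the matrix protein periostin made by activated fibroblasts, had 34.3 to 1428 CPM with a median of 289 in TAC hearts and 32.9, 43.4, 44.3, 48.4 and 51.7 CPM in Sham hearts. TAC replicate 1 was within the Sham range and the other 9 above it, with a log2 fold change of 3.36 ± 0.70 (adjusted p = 0.00381). In bulk tissue, more cells of a type and more RNA per cell cannot be told apart, nor can fewer cells and less RNA. Nppa and Acta1 also passed with the 15 NTG libraries alone (adjusted p = 0.0408 and 0.0186), and Postn did not (0.0663).

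Beyond these markers, the smallest p-values belonged to genes outside the usual hypertrophy and matrix sets, and in each of the 10 smallest all 10 TAC hearts lay on one side of all 5 Sham hearts. Such complete separation was found in 212 of 12196 genes with a mean of at least 2 CPM, of which 97 were lower in TAC hearts (0.795%) and the others higher (0.943%). Without Sham replicate 5 the total became 337.

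Rgs7, a regulator that shortens G protein signals, had the smallest p of all genes. It had 0.275 to 1.69 CPM with a median of 0.745 in TAC hearts and 2.89, 4.40, 4.29, 5.41 and 2.44 CPM in Sham hearts, so it fell in every TAC heart (log2 fold change -2.20 ± 0.29, adjusted p = 0.000165). Bdh1, the mitochondrial enzyme that interconverts the ketone bodies acetoacetate and beta-hydroxybutyrate, had 201 to 450.3 CPM with a median of 315 in TAC hearts, against 159.6, 117, 117, 139.8 and 159 CPM in Sham hearts. The lowest TAC heart, replicate 7, stood above the highest Sham heart, and the log2 fold change was 1.20 ± 0.17 (adjusted p = 0.000542).

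Cpxm2, a secreted member of the carboxypeptidase X family, had 52.8 to 117 CPM with a median of 83.7 in TAC hearts and 34.6, 27.1, 18.8, 25.4 and 22.6 CPM in Sham hearts. The gap between the groups was the widest of all rising genes on the scale of log2(CPM + 0.5), and the log2 fold change was 1.71 ± 0.25 (adjusted p = 0.000542). Prune2 had 177 to 327 CPM with a median of 234 in TAC hearts and 145, 135.2, 131, 150.1 and 139 CPM in Sham hearts and rose in all TAC hearts (log2 fold change 0.77 ± 0.11, adjusted p = 0.000486). Nqo1, a quinone reductase and target of the antioxidant factor NRF2, moved little but evenly, with 71.4 to 90.5 CPM with a median of 78.9 in TAC hearts and 58.6, 56.7, 63.1, 61.5 and 52.8 CPM in Sham hearts. Its log2 fold change of 0.46 ± 0.07 (adjusted p = 0.000542) was the smallest rise among the 10 genes with the smallest p.

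Sypl2, mitsugumin 29 of the triad membranes in skeletal muscle, rose to 5.36 ± 2.49 CPM (SD, n = 10) in TAC hearts, against 1.28 ± 0.484 CPM (SD, n = 5) in Sham hearts. Tlcd4 fell to 1.21 ± 0.306 CPM in TAC hearts, against 2.88 ± 0.573 CPM in Sham hearts. Ston2, an endocytic adaptor, was at 5.95 ± 1.43 CPM in TAC and 11.3 ± 1.78 CPM in Sham hearts, and Ezr, which ties actin to the cell membrane, at 61.1 ± 8.64 CPM in TAC and 83.1 ± 1.32 CPM in Sham hearts. The log2 fold changes were 2.07 for Sypl2, -1.25 for Tlcd4, -0.92 for Ston2 and -0.45 for Ezr, with adjusted p from 0.000922 to 0.000931. All of these genes passed with the 15 NTG libraries alone. Rgs7, Cpxm2, Bdh1, Nqo1 and Tlcd4 passed even in that fit without Sham replicate 5 (adjusted p = 0.0168, 0.0168, 0.0168, 0.0328 and 0.0328).

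**Figure D3:**
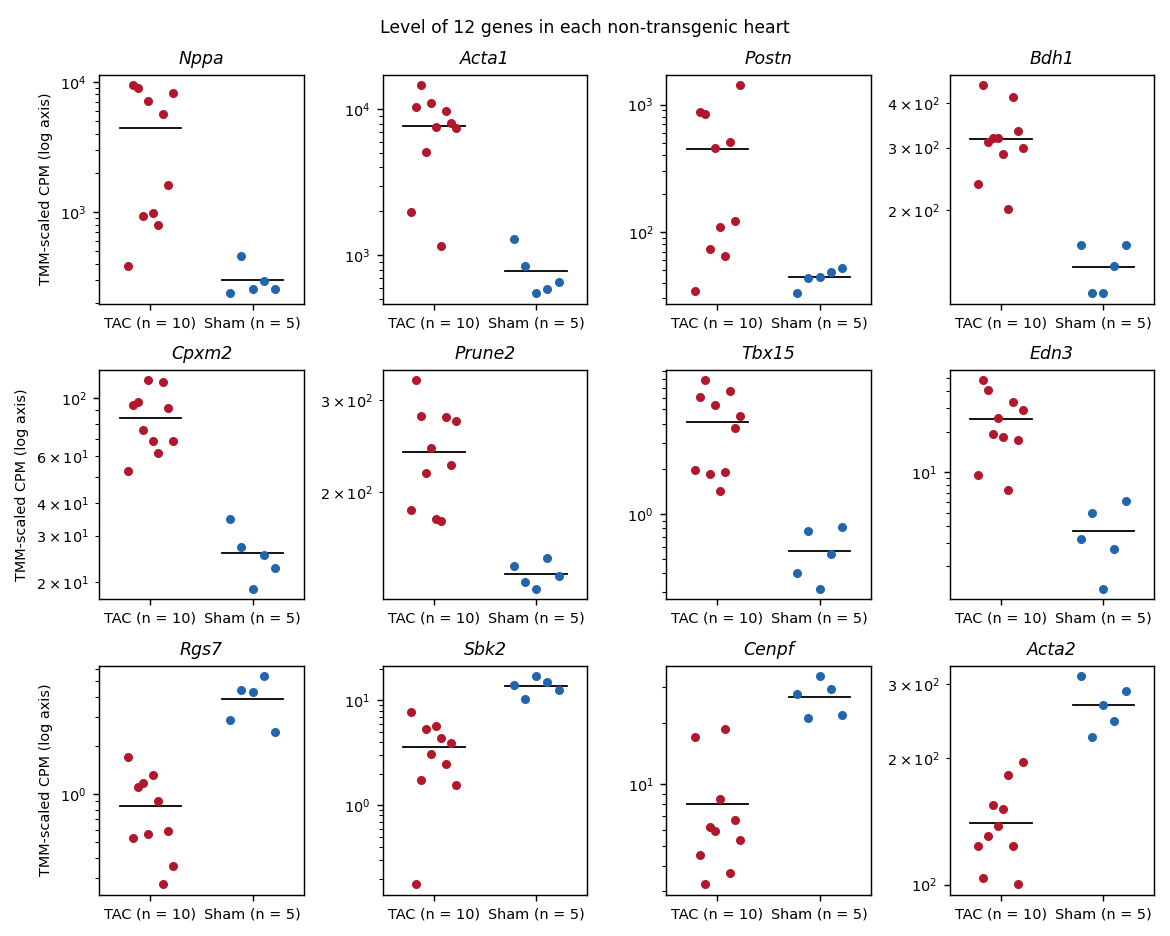
Each point is 1 non-transgenic heart, with TMM-scaled CPM on a log axis, TAC in red on the left of each panel and Sham in blue on the right, and the black line is the mean of the group. Bdh1, Cpxm2, Prune2, Tbx15 and Edn3 lie higher in all 10 TAC hearts and Rgs7, Sbk2, Cenpf and Acta2 lower, while Nppa, Acta1 and Postn overlap the Sham range in 1 TAC heart each.

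The largest rises outside the hypertrophy, matrix and thymus lists, among genes that passed with all 30 libraries, with the 15 NTG libraries and without Sham replicate 5, were led by genes nearly silent in Sham hearts. Vgll2, a cofactor of TEAD transcription factors in skeletal muscle, had 0.187 to 8.48 CPM with a median of 2.47 in TAC hearts and 0.299, 0.0957, 0, 0.324 and 0.102 CPM in Sham hearts, where 3 counts correspond to about 0.3 CPM. TAC replicates 1 and 7 overlapped the Sham hearts, and the log2 fold change of 4.26 ± 0.84 (adjusted p = 0.00238) rests on very few Sham counts. Tbx15, a T-box factor of fast-twitch muscle fibres, had 1.42 to 7.81 CPM with a median of 4.12 in TAC hearts and 0.399, 0.766, 0.314, 0.541 and 0.814 CPM in Sham hearts. All TAC hearts were above all Sham hearts (log2 fold change 2.84 ± 0.48, adjusted p = 0.00095).

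Edn3, the peptide endothelin-3, had 7.39 to 47.9 CPM with a median of 22.2 in TAC hearts and 3.19, 4.98, 1.36, 2.70 and 6.11 CPM in Sham hearts. The groups did not overlap, and the log2 fold change was 2.75 ± 0.45 (adjusted p = 0.00095). Nlrc3, a cytosolic NLR protein known to restrain innate immune signals, had 4.59 to 32.8 CPM with a median of 15.6 in TAC hearts and 2.99, 3.06, 1.57, 2.92 and 3.46 CPM in Sham hearts, again without overlap (log2 fold change 2.67 ± 0.45, adjusted p = 0.00095). Nox4, an NADPH oxidase that makes hydrogen peroxide, averaged 6.81 ± 4.54 CPM (SD, n = 10) in TAC hearts and 1.40 ± 0.389 CPM (SD, n = 5) in Sham hearts (log2 fold change 2.28 ± 0.46), with TAC replicate 1 inside the Sham range.

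Several of the large rises encode secreted proteins. Dkk3, of the Dickkopf family, averaged 14.9 ± 11.005 CPM in TAC and 2.12 ± 0.499 CPM in Sham hearts. The Wnt-binding protein Sfrp2 averaged 22.9 ± 14.5 CPM in TAC and 4.55 ± 0.501 CPM in Sham hearts, and Ccn5, a matricellular protein, 60.2 ± 39.2 CPM in TAC and 13.04 ± 3.78 CPM in Sham hearts. Angptl7, an angiopoietin-like protein, averaged 6.71 ± 5.70 CPM in TAC and 0.596 ± 0.246 CPM in Sham hearts, and Fibin, which is known from fin bud initiation in zebrafish, 40.6 ± 23.3 CPM in TAC and 9.65 ± 2.24 CPM in Sham hearts. Lman1l, of the family of lectins that carry glycoproteins out of the endoplasmic reticulum, averaged 6.94 ± 5.33 CPM in TAC and 0.546 ± 0.192 CPM in Sham hearts, and Mgat5b, a glycosyltransferase, 3.32 ± 2.29 CPM in TAC and 0.405 ± 0.192 CPM in Sham hearts. Their log2 fold changes ran from 2.08 for Fibin to 3.65 for Lman1l, with adjusted p from 0.00095 (Mgat5b) to 0.00415 (Angptl7). For Sfrp2, 17.3% of the exon bases overlap Gm26771, a gene on the opposite strand, and for Bdh1 14.6% overlap Gm15743. Of the genes described further on, other genes overlap 31.5% of the exon bases of Ctsd, 27.2% of Bnip3, 26.5% of Phkg1 and 20.7% of Uchl1.

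Other genes with a wide gap between the groups did not all pass in the NTG libraries alone. Dio2, which activates thyroid hormone in tissues, had 1.69 to 34.3 CPM with a median of 6.57 in TAC hearts and 0.798, 0.957, 0.419, 0.541 and 1.12 CPM in Sham hearts (log2 fold change 4.22 ± 0.84, adjusted p = 0.00275, 0.0555 in NTG alone). Gdf6, a ligand of the bone morphogenetic protein family, had 1.69 to 24.1 CPM with a median of 3.96 in TAC hearts and 0.998, 0.287, 0.628, 0.865 and 0.916 CPM in Sham hearts (log2 fold change 3.36 ± 0.68, adjusted p = 0.00275, 0.0582 in NTG alone). Cnksr1, a scaffold of Ras signalling, had 17.98 to 89.5 CPM with a median of 41.7 in TAC hearts and 11.5, 11.4, 12.8, 13.2 and 10.4 CPM in Sham hearts and passed in both fits (log2 fold change 1.90 ± 0.31, adjusted p = 0.00095, 0.0285 in NTG alone).

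The largest falls were smaller in fold than the largest rises. The 12 largest were chosen under the same limits as the rises, with a mean of at least 2 CPM. Larger falls outside these limits, such as that of Rgs7 (mean 1.86 CPM), are therefore not among the 12. They held a chemokine (Ccl11), a kinase (Sbk2), 2 channel genes (Cacng6 and Scn10a), a sorting receptor (Sorcs2) and 3 uncharacterised genes. Ccl11, the eosinophil attractant eotaxin, had 0.265 to 2.60 CPM with a median of 0.711 in TAC hearts and 2.59, 4.40, 4.40, 4.43 and 6.11 CPM in Sham hearts. The highest TAC heart, replicate 7, reached the lowest Sham heart, and the log2 fold change was -2.22 ± 0.38 (adjusted p = 0.00095). Sbk2, a kinase of the SH3-binding domain family, had 0.177 to 7.77 CPM with a median of 3.52 in TAC hearts and 14.1, 10.3, 17.1, 14.8 and 12.4 CPM in Sham hearts, with no overlap (log2 fold change -1.95 ± 0.31, adjusted p = 0.000931). Cenpf, a kinetochore protein of dividing cells, had 3.24 to 18.8 CPM with a median of 6.06 in TAC hearts and 27.7, 21.2, 34.0, 29.3 and 21.8 CPM in Sham hearts, also with no overlap. Its log2 fold change was -1.76 ± 0.30 (adjusted p = 0.000966).

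Cacng6, a gamma subunit of voltage-gated calcium channels, had 0.214 to 3.84 CPM with a median of 1.02 in TAC hearts and 4.79, 5.27, 6.18, 5.19 and 4.99 CPM in Sham hearts. Scn10a, the sodium channel Nav1.8, had 0.868 to 2.90 CPM with a median of 1.40 in TAC hearts and 5.49, 4.88, 4.29, 4.54 and 4.38 CPM in Sham hearts. Neither gene overlapped between the groups, and their log2 fold changes were -1.93 ± 0.36 and -1.57 ± 0.28 (adjusted p = 0.00165 and 0.00126). Sorcs2, a sorting receptor of neurotrophin signalling, had 7.06 to 36.4 CPM with a median of 19.2 in TAC hearts and 49.0, 51.2, 55.7, 50.9 and 44.6 CPM in Sham hearts, and every TAC heart was lower than every Sham heart (log2 fold change -1.37 ± 0.25, adjusted p = 0.00176).

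The receptor tyrosine kinase Ret averaged 5.18 ± 1.48 CPM in TAC and 11.1 ± 2.17 CPM in Sham hearts, melanopsin (Opn4) 4.003 ± 1.07 CPM in TAC and 7.67 ± 0.878 CPM in Sham hearts, and Ramp1, a partner of the receptor for calcitonin gene-related peptide, 4.50 ± 2.50 CPM in TAC and 10.2 ± 0.487 CPM in Sham hearts. Emilin2, a glycoprotein of elastic fibres, went against the matrix genes with 39.7 ± 15.7 CPM in TAC and 77.3 ± 4.01 CPM in Sham hearts. These 4 genes were named for the width of their gap between the groups, so their lack of overlap follows from that choice. Their log2 fold changes were -1.10, -0.94, -1.20 and -0.97. Ramp1 and Emilin2 did not pass in the NTG libraries alone (adjusted p = 0.0901 and 0.0555). Ankrd63, an ankyrin repeat protein, Epb41l4b, a band 4.1 protein, and the uncharacterised genes Gm10635, Gm28979 and Gm6416 fell with log2 fold changes of -1.51, -1.24, -2.01, -1.41 and -1.35. Tox, a nuclear factor of T cell development, had 0.53 to 3.09 CPM with a median of 1.33 in TAC hearts and 3.99, 3.45, 4.08, 2.49 and 8.04 CPM in Sham hearts, where replicate 5 was highest. It passed without that library (adjusted p = 0.0292).

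**Figure D4:**
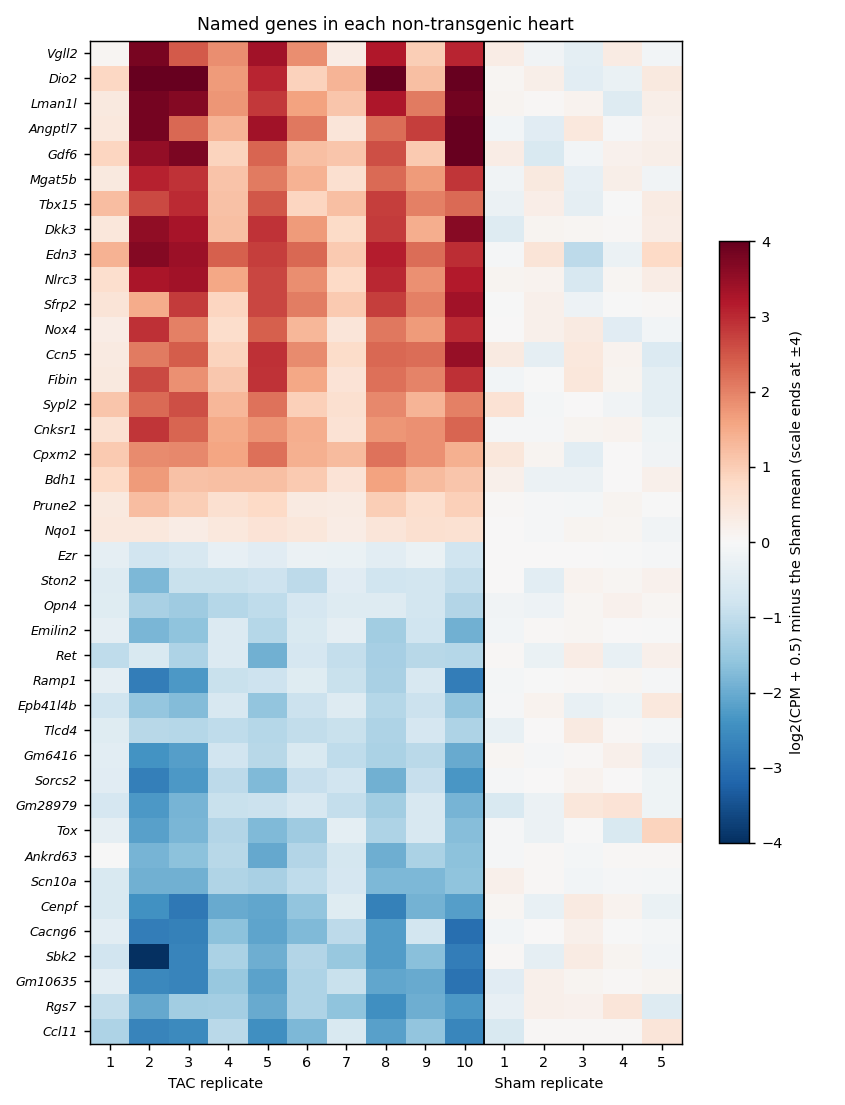
Each row is a named gene and each column 1 non-transgenic heart, TAC replicates 1 to 10 on the left and Sham replicates 1 to 5 on the right, with log2(CPM + 0.5) minus the Sham mean of the gene as colour (red higher, blue lower, ends at ±4). TAC replicates 2, 3, 5, 8 and 10 hold the strongest colours in both directions and TAC replicates 1 and 7 the palest.

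Promoters are shown for 4 of these genes, chosen after the windows had been searched: the marker Acta1, the widest gap among rising genes (Cpxm2), a falling channel gene (Cacng6) and the gene with the second smallest p (Prune2). The first 3 hold a CATTCC element, the MCAT site that TEAD factors bind, and Acta1 and Prune2 hold a CArG box, the site of serum response factor. Each run is the 250 bases before the annotated start in RefSeq (build GRCm38.p6), read 5′ to 3′ along the gene, and capitals mark the letters CATTCC, the same on the other strand, or a CArG box.
Acta1, chr8:123894776-123895025, minus strand: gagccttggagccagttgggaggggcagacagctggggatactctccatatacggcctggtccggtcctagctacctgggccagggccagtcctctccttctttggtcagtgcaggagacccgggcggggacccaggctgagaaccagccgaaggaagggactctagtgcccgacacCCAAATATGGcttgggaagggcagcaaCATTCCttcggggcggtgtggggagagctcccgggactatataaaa
Cpxm2, chr7:132154742-132154991, minus strand: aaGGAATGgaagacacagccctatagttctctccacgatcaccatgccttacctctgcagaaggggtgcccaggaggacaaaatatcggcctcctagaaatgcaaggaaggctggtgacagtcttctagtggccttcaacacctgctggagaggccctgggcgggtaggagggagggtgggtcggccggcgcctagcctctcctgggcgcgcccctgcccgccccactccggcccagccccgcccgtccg
Cacng6, chr7:3424412-3424661, plus strand: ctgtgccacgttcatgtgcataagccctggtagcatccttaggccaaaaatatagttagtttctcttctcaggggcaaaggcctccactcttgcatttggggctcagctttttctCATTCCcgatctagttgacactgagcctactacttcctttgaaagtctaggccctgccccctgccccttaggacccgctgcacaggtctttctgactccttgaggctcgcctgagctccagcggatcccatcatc
Prune2, chr19:16955868-16956117, plus strand: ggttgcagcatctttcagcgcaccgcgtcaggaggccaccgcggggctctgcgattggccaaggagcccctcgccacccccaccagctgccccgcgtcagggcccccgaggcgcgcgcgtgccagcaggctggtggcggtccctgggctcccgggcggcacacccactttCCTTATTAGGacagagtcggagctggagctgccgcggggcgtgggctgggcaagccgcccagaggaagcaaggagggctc
On either strand, CATTCC was present in 12.6% of 32851 windows of this length in the table, a CArG box in 1.47% and the estrogen-related receptor element TCAAGGTCA in 0.387%. Of the 12 largest rises, 9 genes had a window and 2 held CATTCC, and of the 12 largest falls, 7 had a window and 3 held it. None of these 16 genes held a CArG box or TCAAGGTCA. A match describes letters only, and no binding was measured.

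The response was then read by gene lists grouped by role, with the count of tested members that passed, to be read against the 9.46% of all genes that rose and the 8.12% that fell. The lists were drawn up with earlier results of these data known, so their counts describe and do not test them. The 19 genes of the hypertrophy list and the 49 tested matrix genes led, with 14 and 38 rising (median log2 fold change 1.30 and 1.31). In the matrix list the smallest p belonged to Cilp, a matrix protein of cartilage and fibrotic heart, with 123 ± 108 CPM in TAC and 8.28 ± 3.51 CPM in Sham hearts (log2 fold change 3.89 ± 0.75, adjusted p = 0.00238). The 2 hypertrophy genes that fell were the slow skeletal troponin Tnnt1, named here after its values were seen, and Acta2, smooth muscle alpha-actin. Acta2 had 100.1 to 195 CPM with a median of 134 in TAC hearts and 314, 224, 267, 245 and 288 CPM in Sham hearts, so every TAC heart was lower, and the log2 fold change was -0.93 ± 0.16 (adjusted p = 0.000966). Ankrd2, a stretch-responsive protein of slow muscle, averaged 2.74 ± 2.10 CPM in TAC and 0.184 ± 0.0868 CPM in Sham hearts (log2 fold change 3.85 ± 0.66). TAC replicate 7 (0.200 CPM) lay within the Sham range of 0.0957 to 0.305 CPM, and this fold rests on very few Sham counts. Hspb7, a small heat shock protein of the sarcomere, averaged 7856 ± 1296 CPM in TAC and 5407 ± 322 CPM in Sham hearts. In the NTG libraries alone 6 rising and 1 falling hypertrophy genes and 3 rising and 0 falling matrix genes passed.

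Among structural genes, those of microtubules rose in 10 of 26 and fell in 1 (median 0.23). Map1a and Map4, which bind and stabilise microtubules, averaged 21.6 ± 11.003 CPM and 542 ± 95.3 CPM in TAC hearts and 10.6 ± 1.36 CPM and 428 ± 29.8 CPM in Sham hearts. The motor genes Dync1h1 (dynein heavy chain) and Kif5b (kinesin-1 heavy chain) had log2 fold changes of 0.23 ± 0.06 and 0.76 ± 0.20. With the number in the library name as a term the list counted 5 rising and 0 falling. Without Sham replicate 5 the list counted 5 rising and 1 falling, and 0 rising and 0 falling in the NTG libraries alone. Of 31 genes of intermediate filaments and costameres, which tie the sarcomere to the membrane, 8 rose and 1 fell. Desmin (Des) averaged 4933 ± 1534 CPM in TAC and 3137 ± 93.5 CPM in Sham hearts, and the actin-associated protein Synpo 249 ± 73.1 CPM in TAC and 161 ± 6.10 CPM in Sham hearts. Pdlim5 of the Z-disc averaged 1106 ± 273 CPM in TAC and 780.3 ± 11.6 CPM in Sham hearts, and it and Synpo did not overlap between the groups. The gene that fell was Itgb1bp2 (melusin, an integrin-binding sensor of stretch), with 235 ± 31.9 CPM in TAC and 289 ± 9.18 CPM in Sham hearts (log2 fold change -0.30 ± 0.07), and no member of this list passed in the NTG libraries alone.

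Thick and thin filament genes split, with 7 of 29 rising and 5 falling. Nrap, which anchors forming myofibrils at the cell ends, had 833 to 1472 CPM with a median of 1073 in TAC hearts and 788, 771, 654, 684 and 638 CPM in Sham hearts and did not overlap (log2 fold change 0.64 ± 0.11, adjusted p = 0.00095, 0.0347 in NTG alone). Myom3, an M-band protein, averaged 6.83 ± 1.47 CPM in TAC and 3.86 ± 0.864 CPM in Sham hearts, and Cfl2, muscle cofilin, 572 ± 91.2 CPM in TAC and 437 ± 15.7 CPM in Sham hearts, and of these Myom3 passed in NTG alone (adjusted p = 0.0383). Without Sham replicate 5 the list counted 4 rising and 5 falling. Of 18 genes of the intercalated disc, the junction between muscle cells, 1 rose and 3 fell. The gap junction gene Gja1 (connexin 43) averaged 607 ± 90.0 CPM in TAC and 785 ± 70.6 CPM in Sham hearts (log2 fold change -0.37 ± 0.09), while plakophilin 2 (Pkp2) averaged 287 ± 22.7 CPM in TAC and 246 ± 10.4 CPM in Sham hearts (log2 fold change 0.22 ± 0.05). Neither passed in the NTG libraries alone (adjusted p = 0.069 and 0.0786).

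Integrins, stretch sensors and their transcriptional partners rose in 9 of 32 and fell in 1. The collagen receptor kinase Ddr1 had 45.8 to 93.4 CPM with a median of 56.8 in TAC hearts and 41.4, 40.7, 39.2, 40.2 and 40.6 CPM in Sham hearts without overlap (log2 fold change 0.61 ± 0.12, adjusted p = 0.00188, 0.0487 in NTG alone). Itga9 averaged 112 ± 47.1 CPM in TAC and 56.2 ± 8.90 CPM in Sham hearts. Tead1, a TEAD factor itself, and its coactivator Wwtr1 (TAZ) had log2 fold changes of 0.40 ± 0.10 and 0.30 ± 0.07, and the 3 genes passed over all libraries but not in NTG alone (adjusted p from 0.0735 to 0.0866).

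Potassium channel genes fell in 9 of 23 and rose in 1 (median -0.27). Kcnj3 and Kcnj5, the pore subunits of the acetylcholine-gated channel, averaged 67.2 ± 27.6 CPM and 51.0 ± 13.2 CPM in TAC hearts and 114.3 ± 4.45 CPM and 73.9 ± 4.83 CPM in Sham hearts. Kcnj3 did not overlap between the groups (log2 fold change -0.77 ± 0.21), and 31.1% of its exon bases overlap Gm26794 on the opposite strand. Kcnd2, of the transient outward current, averaged 13.4 ± 5.23 CPM in TAC and 21.9 ± 3.02 CPM in Sham hearts. The list counted 1 rising and 5 falling without Sham replicate 5, 0 rising and 0 falling in the NTG libraries alone and 3 falling with the number in the library name as a term. Of 25 sodium, calcium and pacemaker channel genes 3 rose and 5 fell. Without Sham replicate 5 these counted 2 rising and 3 falling, and with the number in the library name as a term 4 rising and 1 falling. The auxiliary calcium channel subunit Cacnb1 rose with a log2 fold change of 0.54 ± 0.12. The muscle chloride channel Clcn1 averaged 10.4 ± 7.47 CPM in TAC and 25.8 ± 2.18 CPM in Sham hearts (log2 fold change -1.34 ± 0.40, adjusted p = 0.0222), with all TAC hearts below all Sham hearts.

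Calcium cycling genes fell in 8 of 30 and none rose, although the median of the list was -0.038. Ryr2, the calcium release channel, averaged 989 ± 148 CPM in TAC and 1249 ± 104.01 CPM in Sham hearts (log2 fold change -0.34 ± 0.08, adjusted p = 0.00824). Hrc, a calcium-binding protein of the reticulum, fell with a log2 fold change of -0.53 ± 0.16 (adjusted p = 0.0234), and phospholamban (Pln), the brake of the calcium pump, with one of -0.39 ± 0.12 (adjusted p = 0.0298), though Gm47644 on the opposite strand overlaps 59.6% of the exon bases of Pln. Both calls ended when 1 Sham heart was left out (highest adjusted p = 0.0561 for Hrc without Sham replicate 4, 0.0691 for Pln without Sham replicate 3). The list counted 0 rising and 5 falling without Sham replicate 5, 0 rising and 0 falling in the NTG libraries alone and 1 rising and 1 falling with the number in the library name as a term.

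Hormone systems split between rising and falling members. In the natriuretic, angiotensin and endothelin list 7 of 28 rose and 7 fell. Ace, which makes angiotensin II, averaged 194 ± 82.0 CPM in TAC and 93.0 ± 6.24 CPM in Sham hearts (log2 fold change 1.06 ± 0.22, adjusted p = 0.00361, 0.0639 in NTG alone). Mas1, the receptor of angiotensin-(1-7), had 0.316 to 1.69 CPM with a median of 0.973 in TAC hearts and 3.59, 3.54, 1.78, 2.27 and 2.55 CPM in Sham hearts, with all TAC hearts below all Sham hearts (log2 fold change -1.49 ± 0.27, adjusted p = 0.00126, 0.0356 in NTG alone). Npr3, the clearance receptor of natriuretic peptides, averaged 23.7 ± 9.40 CPM in TAC and 13.1 ± 2.15 CPM in Sham hearts (log2 fold change 0.86 ± 0.23).

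Of 41 genes of adrenergic and cyclic AMP signalling 6 rose and 6 fell. Pde8a, a cyclic AMP phosphodiesterase, had 42.8 to 71.6 CPM with a median of 50.9 in TAC hearts and 41.4, 42.1, 33.7, 32.4 and 36.04 CPM in Sham hearts without overlap (log2 fold change 0.51 ± 0.09, adjusted p = 0.0011, 0.0353 in NTG alone). The adenylyl cyclase Adcy7 averaged 31.6 ± 18.3 CPM in TAC and 12.1 ± 1.43 CPM in Sham hearts, and the alpha-adrenergic receptor Adra1b 31.9 ± 13.1 CPM in TAC and 59.9 ± 7.06 CPM in Sham hearts. Prkar1a, a regulatory subunit of protein kinase A, had a log2 fold change of 0.58 ± 0.14. Among 52 genes of calcineurin and kinase signalling 9 rose and 9 fell, and the phosphatase gene Dusp10, which acts on stress kinases, averaged 9.40 ± 2.41 CPM in TAC and 15.4 ± 0.706 CPM in Sham hearts with no overlap. Map3k5 (the stress kinase ASK1) and Akt2 fell as well, with log2 fold changes of -0.35 ± 0.07 and -0.38 ± 0.09, and of these Dusp10 and Map3k5 passed in NTG alone.

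Growth factors and other secreted signals rose in 18 of 53 and fell in 6 (median 0.21). Igfbp6, a binding protein for insulin-like growth factors, averaged 25.3 ± 6.69 CPM in TAC and 14.1 ± 3.56 CPM in Sham hearts. Igf2, a fetal growth factor, had 13.5 to 22.6 CPM with a median of 18.1 in TAC hearts and 26.7, 26.6, 29.0, 25.8 and 28.0 CPM in Sham hearts and did not overlap (log2 fold change -0.59 ± 0.11, adjusted p = 0.00126), though 70.4% of its exon bases overlap Gm49394 and Igf2os. Wnt modulators rose in 8 of 25 and fell in 3, led by Sfrp2, Dkk3 and Ccn5, already given, and by Frzb, another secreted Wnt antagonist, with 21.7 ± 15.3 CPM in TAC and 4.40 ± 0.61 CPM in Sham hearts (log2 fold change 2.31 ± 0.45, adjusted p = 0.00239, 0.0549 in NTG alone).

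In the transforming growth factor beta list 9 of 24 rose and 3 fell. The ligand Tgfb3 averaged 49.3 ± 21.9 CPM in TAC and 25.9 ± 2.004 CPM in Sham hearts, and the secreted antagonist Nbl1 39.2 ± 16.5 CPM in TAC and 19.9 ± 2.57 CPM in Sham hearts. Ltbp1, which stores the latent ligand in the matrix, fell in all 10 TAC hearts below the Sham range, with 52.6 ± 7.63 CPM in TAC and 69.1 ± 6.58 CPM in Sham hearts (log2 fold change -0.39 ± 0.08), while Ltbp2, of the same family, had 3.65 to 289.6 CPM with a median of 46.2 in TAC hearts and 2.59, 2.78, 1.57, 2.81 and 3.46 CPM in Sham hearts (log2 fold change 4.96 ± 0.96, adjusted p = 0.00246). Of these, none passed in NTG alone (adjusted p from 0.0503 to 0.0855).

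Proteases and their inhibitors rose in 13 of 39 and fell in 5, and counted 13 rising and 3 falling without Sham replicate 5. Mmp23 averaged 19.2 ± 7.69 CPM in TAC and 8.79 ± 1.11 CPM in Sham hearts, and Adamtsl2, a matrix glycoprotein related to the ADAMTS proteases, 58.2 ± 39.9 CPM in TAC and 11.5 ± 3.74 CPM in Sham hearts. Mmp9, a gelatinase of leukocytes, moved the other way: it had 0.0883 to 0.982 CPM with a median of 0.495 in TAC hearts and 1.40, 1.91, 1.36, 1.298 and 2.24 CPM in Sham hearts with no overlap (log2 fold change -1.63 ± 0.34, adjusted p = 0.00329, 0.036 in NTG alone).

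Of 60 transcription factors of heart and mesenchyme 6 rose and 6 fell, close to the share over all genes, and 48 did not pass. After Tbx15 the smallest p belonged to Scx (scleraxis, a factor of tendon and matrix cells), with 12.3 ± 4.88 CPM in TAC and 5.496 ± 1.45 CPM in Sham hearts (log2 fold change 1.17 ± 0.22, adjusted p = 0.00188), and to Gata6, with 96.9 ± 10.98 CPM in TAC and 121 ± 10.5 CPM in Sham hearts (log2 fold change -0.32 ± 0.08, adjusted p = 0.00632). Cell cycle genes passed in 3 of 30. Ccnd2 and Ccne1, cyclins of the entry into the cycle, averaged 263 ± 49.7 CPM and 3.16 ± 0.899 CPM in TAC hearts and 172 ± 10.4 CPM and 1.55 ± 0.261 CPM in Sham hearts, and Cenpf fell as given above. These 3 genes passed in NTG alone too (adjusted p = 0.0353, 0.0353 and 0.0347). Without Sham replicate 5 the list counted 7 rising and 1 falling.

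Energy metabolism showed the most one-sided falls. Of 60 genes of the citrate cycle, respiratory chain and its assembly 36 fell and none rose, and the median log2 fold change was -0.26. Of 50 genes of fatty acid oxidation 25 fell and none rose, with a median of -0.31, and 48 of the 50 had a negative log2 fold change. Citrate synthase (Cs), the first enzyme of the cycle, had 1341 to 2578 CPM with a median of 2158 in TAC hearts and 2611, 2704, 2772, 2807 and 2613 CPM in Sham hearts, and all TAC hearts were below all Sham hearts (log2 fold change -0.38 ± 0.09, adjusted p = 0.00854).

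Suclg1 and Idh3a, also of the citrate cycle, averaged 234 ± 45.97 CPM and 733 ± 98.3 CPM in TAC hearts and 310.3 ± 16.8 CPM and 886 ± 24.8 CPM in Sham hearts. Cox7a1, the muscle form of a cytochrome oxidase subunit, averaged 338 ± 104.1 CPM in TAC and 520.0 ± 83.9 CPM in Sham hearts. In fatty acid oxidation, Etfb, which passes electrons from the oxidation steps, averaged 344 ± 104.6 CPM in TAC and 535 ± 64.0 CPM in Sham hearts, with 69.1% of its exon bases overlapping Gm45233. Eci2, an enoyl-CoA isomerase, averaged 171 ± 30.6 CPM in TAC and 219 ± 9.31 CPM in Sham hearts without overlap. Acot1, an acyl-CoA thioesterase, had 1.94 to 13.02 CPM with a median of 3.89 in TAC hearts and 13.8, 12.3, 13.1, 13.6 and 13.2 CPM in Sham hearts, and Rxrg, a nuclear receptor partner, averaged 70.3 ± 16.6 CPM in TAC and 100.003 ± 5.36 CPM in Sham hearts. Acot1 has a near-identical neighbour, Acot2, so its count is uncertain. The log2 fold changes of these genes ran from -1.37 (Acot1) to -0.27 (Idh3a). None of the members of either list passed in the NTG libraries alone, and with the number in the library name as a term 18 genes of the citrate cycle list and 14 of fatty acid oxidation fell. The muscle transcript Tnnt2 moved the same way, with 5674 to 8440 CPM in TAC libraries and 7950 to 9917 CPM in Sham libraries per library total, and its part in these falls was not tested.

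Enzymes of branched-chain amino acids and ketone bodies fell in 13 of 26 (median -0.26), and the 1 member that rose was Bdh1. With the number in the library name as a term, 5 members fell. Bckdhb, a subunit of the branched-chain keto acid dehydrogenase, averaged 50.4 ± 12.7 CPM in TAC and 71.4 ± 8.16 CPM in Sham hearts (log2 fold change -0.51 ± 0.12), and Mccc1, of leucine breakdown, 95.8 ± 16.7 CPM in TAC and 120.1 ± 6.92 CPM in Sham hearts (log2 fold change -0.33 ± 0.09). In glucose and glycogen metabolism 5 of 49 rose and 7 fell, while with the number in the library name as a term the counts were 10 rising and 1 falling. Pfkp, the platelet form of phosphofructokinase, averaged 142 ± 84.6 CPM in TAC and 67.3 ± 4.70 CPM in Sham hearts, while Phkg1, the muscle phosphorylase kinase subunit, averaged 14.8 ± 8.84 CPM in TAC and 30.4 ± 4.28 CPM in Sham hearts. Gyg and Ugp2, which begin and feed glycogen synthesis, had log2 fold changes of 0.23 ± 0.06 and 0.44 ± 0.12. Apart from Bdh1, none of these genes passed in NTG alone.

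In the list of NAD, creatine and redox genes 9 of 48 rose and 7 fell. Gpx3, the secreted glutathione peroxidase, had 376 to 1579.8 CPM with a median of 562 in TAC hearts and 252, 289.8, 335, 303 and 339 CPM in Sham hearts without overlap (log2 fold change 1.24 ± 0.27, adjusted p = 0.00479), and the creatine transporter Slc6a8 averaged 359 ± 30.5 CPM in TAC and 297 ± 24.0 CPM in Sham hearts. Among transporters and water channels 7 of 36 rose and 7 fell. The aquaporins Aqp8 and Aqp4 moved in opposite directions. Aqp8 averaged 8.56 ± 3.85 CPM in TAC and 2.38 ± 1.33 CPM in Sham hearts (log2 fold change 1.83 ± 0.35, adjusted p = 0.00189), and Aqp4 averaged 2.47 ± 1.82 CPM in TAC and 8.46 ± 2.36 CPM in Sham hearts (log2 fold change -1.81 ± 0.40, adjusted p = 0.00479). The taurine transporter Slc6a6 averaged 277 ± 48.4 CPM in TAC and 193 ± 13.8 CPM in Sham hearts. Aqp8 and Slc6a6 passed in NTG alone, and Gpx3, Slc6a8 and Aqp4 did not (adjusted p from 0.0607 to 0.071).

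Genes of protein breakdown and autophagy rose in 13 of 42 and fell in 2. Ctsk and Ctsd, lysosomal proteases, averaged 11.8 ± 5.10 CPM and 1789 ± 176 CPM in TAC hearts and 4.88 ± 0.697 CPM and 1443 ± 69.8 CPM in Sham hearts. Bnip3, a receptor for mitochondrial autophagy, had 150.1 to 366 CPM with a median of 165 in TAC hearts and 121, 121, 128, 123 and 114.5 CPM in Sham hearts without overlap (log2 fold change 0.62 ± 0.14). The list counted 7 rising and 0 falling without Sham replicate 5 and 1 rising and 0 falling in the NTG libraries alone, where Ctsk was the member that passed (adjusted p = 0.0487). Heat shock and sarcomere chaperones rose in 7 of 28 and fell in 1, and counted 4 rising and 2 falling without Sham replicate 5. Hspb8 and Cryab, small heat shock proteins, averaged 1061 ± 114.8 CPM and 3049.9 ± 468 CPM in TAC hearts and 824 ± 67.4 CPM and 2386 ± 92.7 CPM in Sham hearts.

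Genes of the endoplasmic reticulum rose in 6 of 40 and fell in none, and the 3 with the smallest p were the collagen-modifying P3h3, P4ha1 and P4hb, with log2 fold changes of 0.65 ± 0.16, 0.90 ± 0.23 and 0.36 ± 0.10. In the list of serine synthesis, one-carbon metabolism and the integrated stress response 4 of 32 rose and 3 fell. Gdf15, a stress hormone, had 1.03 to 51.3 CPM with a median of 8.24 in TAC hearts and 1.70, 1.05, 0.523, 0.865 and 1.12 CPM in Sham hearts, with 1 TAC heart, replicate 1, inside the Sham range (log2 fold change 3.83 ± 0.84, adjusted p = 0.00505, 0.0707 in NTG alone). Aldh1l2, a mitochondrial folate enzyme, averaged 2.33 ± 0.956 CPM in TAC and 4.34 ± 0.529 CPM in Sham hearts, with all TAC hearts lower.

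Among immune lists, macrophage and monocyte markers rose in 12 of 27 and fell in 1 (median 0.63). The summed level of the 32 markers was 324 to 1649 CPM in TAC libraries (median 589.3) and 367 to 488.7 CPM in Sham libraries. Cd14 and Fcgr3 averaged 8.43 ± 2.93 CPM and 15.9 ± 6.4996 CPM in TAC hearts and 4.52 ± 1.09 CPM and 8.81 ± 1.38 CPM in Sham hearts. Spp1 (osteopontin) had 0.468 to 96.3 CPM with a median of 1.43 in TAC hearts and 0.0998, 0.766, 0.419, 0.432 and 0.713 CPM in Sham hearts, and 4 TAC hearts overlapped the Sham range. The marker that fell was Retnla, of alternatively activated macrophages, with 0.741 ± 0.808 CPM in TAC and 2.77 ± 0.939 CPM in Sham hearts. The list counted 7 rising and 1 falling without Sham replicate 5, 3 rising and 1 falling with the number in the library name as a term and 0 rising and 0 falling in the NTG libraries alone.

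Complement and coagulation genes rose in 6 of 24 and fell in 1. The complement gene C4b averaged 30.6 ± 15.5 CPM in TAC and 11.2 ± 3.18 CPM in Sham hearts, and Tfpi, an inhibitor of coagulation, 72.7 ± 14.4 CPM in TAC and 102.9 ± 9.48 CPM in Sham hearts (log2 fold change -0.50 ± 0.10, adjusted p = 0.00312). Chemokines and cytokine receptors rose in 4 of 29 and fell in 2 (2 rising and 1 falling without Sham replicate 5), and Tnfrsf12a, the receptor of the cytokine TWEAK, averaged 125 ± 83.4 CPM in TAC and 45.8 ± 6.11 CPM in Sham hearts. Interferon and antigen presentation genes passed in 1 of 34, Ifit2, with 22.5 ± 5.13 CPM in TAC and 15.4 ± 1.04 CPM in Sham hearts.

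Markers of other cells of the ventricle moved to different degrees. Resident fibroblast genes rose in 11 of 23 and fell in none, with Smoc2, Mfap5, Mgp and Pi16 at log2 fold changes of 0.33 ± 0.07, 2.22 ± 0.50, 1.41 ± 0.32 and 1.19 ± 0.30. Their summed level was 3793 to 5311 CPM in TAC and 3308 to 4262 CPM in Sham libraries, and the count without Sham replicate 5 was 6 rising and 0 falling (4 rising and 0 falling with the number in the library name as a term). Smooth muscle and pericyte genes rose in 3 of 19 and fell in 4. Next to Acta2, smoothelin (Smtn) averaged 257 ± 49.9 CPM in TAC and 342 ± 17.3 CPM in Sham hearts and the smooth muscle myosin Myh11 35.8 ± 7.04 CPM in TAC and 49.7 ± 8.80 CPM in Sham hearts. The Myh11 call ended without Sham replicate 4 (adjusted p = 0.0613). Desmin, given above, was among the members that rose (log2 fold change 0.65 ± 0.15). The summed level of the 19 smooth muscle and pericyte markers, which desmin takes part in, was 5631 to 10230 CPM in TAC and 5504 to 5755 CPM in Sham libraries. Endothelial genes rose in 3 of 31 and fell in none (1 rising without Sham replicate 5), with a summed level of 4372 to 5666 CPM in TAC and 5065 to 5468 CPM in Sham libraries.

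Genes of peripheral glia and nerve fell in 5 of the 10 tested (median -0.78). Dbh, which makes noradrenaline in sympathetic nerves, averaged 2.72 ± 1.22 CPM in TAC and 5.93 ± 1.07 CPM in Sham hearts (log2 fold change -1.13 ± 0.26, adjusted p = 0.00554, 0.0487 in NTG alone), and the glial factor Sox10 2.29 ± 1.22 CPM in TAC and 5.19 ± 1.86 CPM in Sham hearts. Uchl1, a ubiquitin hydrolase of neurons, went the other way with 34.9 ± 19.8 CPM in TAC and 12.6 ± 1.67 CPM in Sham hearts (log2 fold change 1.48 ± 0.32). The summed level of the 18 markers, which Uchl1 takes part in, was 45.53 to 95.62 CPM in TAC and 41.19 to 60.14 CPM in Sham libraries. The list counted 1 rising and 3 falling without Sham replicate 5.

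Genes of axon guidance and neural adhesion rose in 7 of 44 and fell in 5, and counted 3 rising and 4 falling without Sham replicate 5. Rtn4 (Nogo) and Dpysl3, which acts in growth cones, averaged 217 ± 142 CPM and 108 ± 64.2 CPM in TAC hearts and 90.6 ± 4.51 CPM and 49.4 ± 4.73 CPM in Sham hearts, while the adhesion gene L1cam averaged 4.79 ± 1.05 CPM in TAC and 7.70 ± 2.03 CPM in Sham hearts. Genes of atria and conduction tissue rose in 3 of 18 and fell in 6 (median -0.058). Kcnj5, given above, was among the members that fell (log2 fold change -0.54 ± 0.14), and the members described next rose. Pam, which amidates peptide hormones, averaged 1049.6 ± 323 CPM in TAC and 601 ± 56.6 CPM in Sham hearts, and Clu, the extracellular chaperone clusterin, 1484 ± 973 CPM in TAC and 692 ± 47.9 CPM in Sham hearts. The mesothelial list had 1 gene that passed, Efemp1 (fibulin-3), with 4.97 ± 3.45 CPM in TAC and 12.4 ± 2.82 CPM in Sham hearts (log2 fold change -1.35 ± 0.35, adjusted p = 0.0109). The gene with the next smallest p, Aldh1a2, did not pass (log2 fold change 1.10 ± 0.42, adjusted p = 0.0677). Of the 8 tested members, 3 had a positive log2 fold change. Without Sham replicate 5 the mesothelial list counted 1 rising and 1 falling. Of the genes named in this paragraph that passed over all libraries, none passed in NTG alone (adjusted p from 0.0517 to 0.11).

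The thymus and T cell list fell in 8 of 12 tested genes with all libraries and in 0 without Sham replicate 5. Tcf7, a T cell factor, had 0.777 to 7.96 CPM with a median of 1.499 in TAC hearts and 1.10, 2.39, 0.733, 4.87 and 112 CPM in Sham hearts, the last in replicate 5. Its adjusted p was 0.00402 with that library and 0.946 without it.

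**Figure D5:**
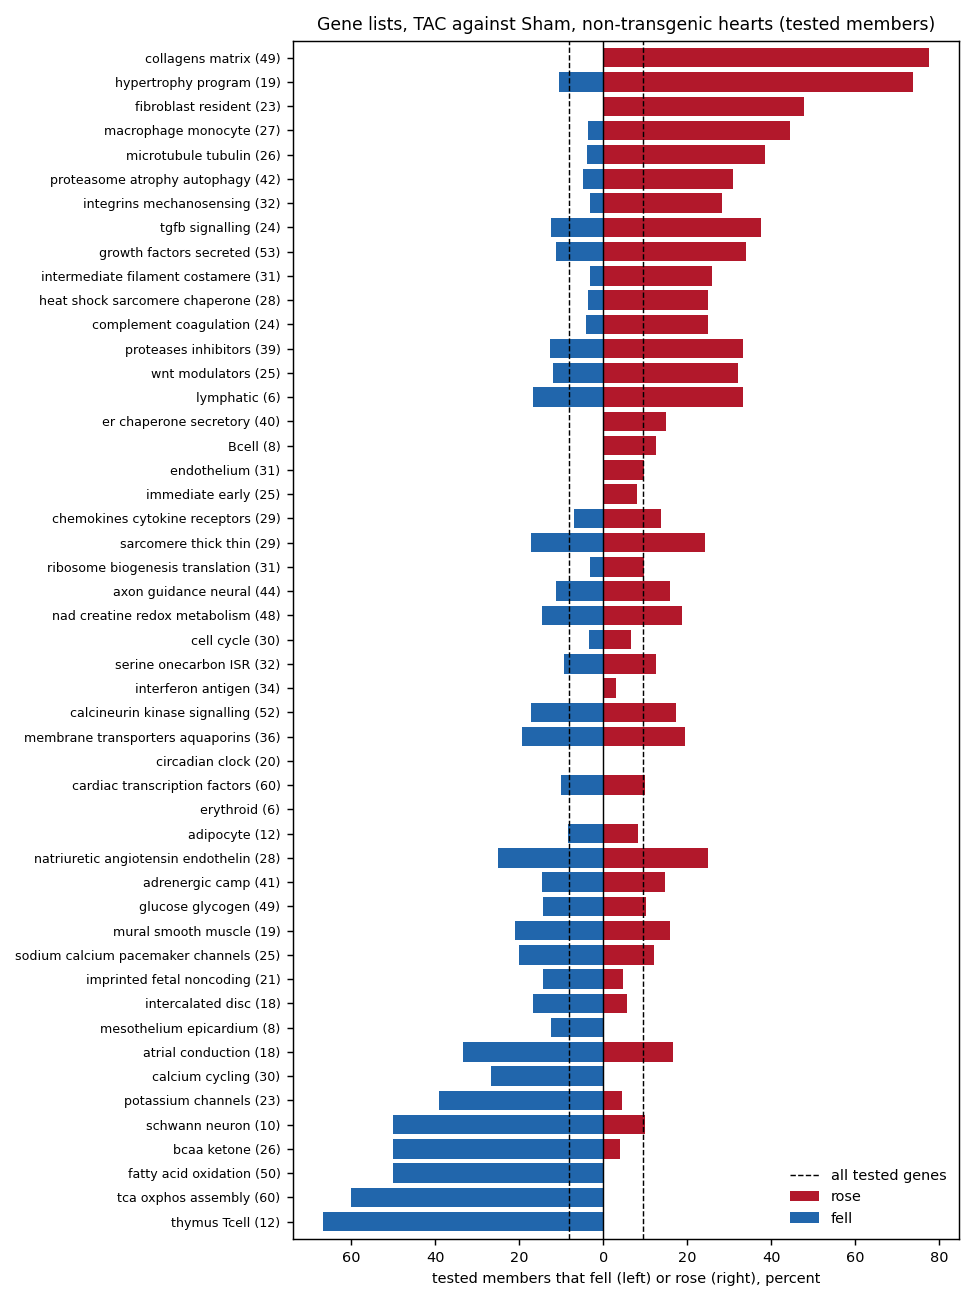
Each bar pair gives the share (percent) of the tested members of a gene list that rose (red, right) or fell (blue, left) in non-transgenic TAC against Sham hearts, with the number tested in parentheses, and dashed lines mark the 9.46% and 8.12% of all tested genes. Matrix, hypertrophy, fibroblast, macrophage and microtubule genes lie far to the right, and energy metabolism, ketone and amino acid breakdown, glia and potassium channels to the left, while the thymus list rests on Sham replicate 5.

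In 4 further lists few members or none passed. None of 20 circadian clock genes passed by edgeR's quasi-likelihood test, with Nr1d1 at 264 ± 77.7 CPM in TAC and 333 ± 33.3 CPM in Sham hearts (adjusted p = 0.165), and 1 rose with the number in the library name as a term. None of 6 red blood cell genes passed, although all 6 had a positive log2 fold change (median 0.29), and the summed level of the 7 genes detected was 1273 to 3794 CPM in TAC and 956.6 to 2325 CPM in Sham libraries. Immediate early genes passed in 2 of 25, Gadd45g and Egr2, with 15.998 ± 10.5 CPM and 4.34 ± 3.81 CPM in TAC hearts and 7.45 ± 2.30 CPM and 1.25 ± 0.503 CPM in Sham hearts, and both calls ended when 1 Sham heart was left out (adjusted p = 0.0607 without replicate 2 and 0.0692 without replicate 3). The median of the immediate early list was 0.30, with 21 of the 25 log2 fold changes positive. Genes of ribosomes and translation passed in 4 of 31, with 3 rising and 1 falling. The member that fell was Dkc1, an RNA-modifying enzyme, with 19.9 ± 2.30 CPM in TAC and 24.9 ± 2.89 CPM in Sham hearts. With all libraries the members that rose were Bop1, Rpl3 and Eef1a1. With the number in the library name as a term, 1 member rose and 1 fell.

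The same contrast in TG hearts allows a test of whether the NTG response differed. The number in the library name was 100 or more in 1 of 10 TG TAC and 5 of 5 TG Sham libraries. In TG hearts this number can therefore hardly be told apart from TAC. No gene passed for the interaction of TAC and genotype (0% of 13588, edgeR's quasi-likelihood test), nor with that number as a term. An unadjusted p under 0.05, which 1 in 20 genes has without any effect, was found for 1103 of the 13588 genes. DESeq2 called 5. Of the 2390 genes that passed in NTG hearts, 2197 moved in the same direction in TG hearts and 125 also passed there, where 194 of 13588 genes passed in all (1.43%). The share of all tested genes with the same direction was not computed. The genes that rose had a median log2 fold change of 0.51 in NTG and 0.19 in TG hearts, and those that fell -0.37 in NTG and -0.16 in TG hearts, but they were chosen in NTG hearts. Tbx15, Cpxm2 and Acta1 had log2 fold changes of 2.84 ± 0.48, 1.71 ± 0.25 and 3.30 ± 0.52 in NTG hearts and 2.90 ± 0.52, 1.56 ± 0.25 and 3.64 ± 0.53 in TG hearts, where all 3 passed. Postn had 3.36 ± 0.70 in NTG and 1.11 ± 0.63 in TG hearts, and the difference of 2.25 ± 0.86 did not pass (adjusted p = 0.614).

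The smallest p of the interaction belonged to Mthfd2, a mitochondrial folate enzyme, with a log2 fold change of 1.25 ± 0.41 in NTG and -1.54 ± 0.26 in TG hearts. The difference was 2.78 ± 0.49 (adjusted p = 0.059). It had 2.25 to 12.5 CPM with a median of 5.06 in NTG TAC hearts and 2.195, 2.202, 0.942, 2.81 and 4.48 CPM in NTG Sham hearts, and its NTG call ended when 1 Sham heart was left out (highest adjusted p = 0.102, without replicate 3). The next 5 genes in order of p were the chaperone Hspa13, the amino acid transporter Slc7a5, the stress factor Atf5, Nmral1 and the asparaginyl-tRNA synthetase Nars. Their differences were 0.53 ± 0.12, 1.33 ± 0.30, 1.09 ± 0.24, 1.38 ± 0.32 and 0.37 ± 0.09, each with an adjusted p of 0.266.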

How the data were processed

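The authors deposited 1 table of raw counts per gene for each library, with mouse Entrez gene IDs. Per the labels' protocols, the libraries were strand-specific mRNA libraries made from 1.3 ug of RNA and read as paired ends of 100 bases on the DNBSEQ platform. The submitters' processing notes name Trim Galore 0.6.4, TopHat, Bowtie2 2.2.9, edgeR 3.17 and the build mm10. The counting program and its strand setting are not given in the sources used here. Gene names came from RefSeq, which matched 24437 of 24467 IDs. Library totals in NTG were 9231678 to 13093351 counts. The values carry counting error, and reads without molecular identifiers are not independent molecules.

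All 30 libraries were fitted with edgeR 4.0.16 in R 4.3.3 (quasi-likelihood test, robust, TMM factors, filterByExpr with a minimum count of 10), and the contrast NTG TAC minus NTG Sham was tested with Benjamini-Hochberg adjustment over 13588 genes at 0.05. SEs were taken from each log2 fold change and its F statistic. Alternatives used limma 3.58.1, DESeq2 1.42.0 and sva 3.50.0, other factors and filters, the NTG libraries alone, a replicate block, a term for the number in the library name, and each NTG library left out. The script was tested on simulated data. All 55 within-group pairs of NTG libraries were checked for duplicates, and none agreed within counting noise (lowest chi-square per degree of freedom 2.85).

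Members and gene lists were chosen with earlier results of these data known. Genes were named by rule: the 3 markers, the 12 largest rises and falls that passed in all libraries, in the NTG libraries alone and without NTG Sham replicate 5 (mean of at least 2 CPM, outside the hypertrophy, matrix and thymus lists), the 10 smallest p-values, the 8 widest gaps each way, the 4 members of each list with the smallest p and the 8 smallest p of the interaction. Some genes that the rule chose are not reported here. Tnnt2, Myh6, Rag1 and the atrial genes were given as cell type markers, and Tnnt1 and the genes of the closing observations were named after their values were seen.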

Additional observations from a re-analysis of the deposited data

Results flagged for a closer look

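Single hearts stood apart from the others of their group for 6 of 44 genes chosen by rule, by Dixon's test on each group of libraries. Over 88 such groups an error rate of 1 in 20 gives 4.4, so the number is close to chance. Ankrd63 had 3.466 CPM in TAC replicate 1, the highest of the TAC hearts. The other 5 were Sham hearts: Nppa had 460.5 CPM in replicate 2, the highest, Tox 8.043 CPM in replicate 5, the highest, Lman1l 0.2162 CPM in replicate 4, the lowest, Nlrc3 1.57 CPM in replicate 3, the lowest, and Ston2 8.233 CPM in replicate 2, the lowest. Sham replicate 5 is the library with thymus transcripts, and Tox, a T cell factor, passed without it (adjusted p = 0.0292, edgeR's quasi-likelihood test).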

How the results depend on the processing

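The counts over all genes, 1286 rising and 1104 falling with edgeR's quasi-likelihood test, stayed within 1.5 times under RLE factors, library totals, no filter, a strict filter, DESeq2 and voom with a weight per group (1129 to 1441 rising, 951 to 1311 falling). They moved further with the NTG libraries alone (132 rising, 86 falling), in that fit by voom (568 rising), in that fit without NTG Sham replicate 5 (4 rising, 5 falling), with 1 surrogate variable (112 rising, 100 falling), with the number in the library name as a term (671 falling) and in the NTG libraries numbered 100 or more (0 in both directions), and the cause was not tested. Leaving out 1 NTG library at a time gave 891 to 1663 rising and 653 to 1537 falling genes. The numbers 1 to 5 that groups share did not pair the samples (correlations of deviations from -0.148 to 0.0916), and with the replicate number as a block 955 genes rose and 866 fell. For the interaction with genotype, 0 genes became 5 by DESeq2 and 0 to 2 when 1 library was left out. The 212 genes without overlap between groups became 337 without NTG Sham replicate 5, with 155 higher and 182 lower in TAC hearts. Such a count can only stay or grow when a library is left out. It was not repeated without another Sham library, so the part of replicate 5 itself was not tested. The sign turned for a pair of thymus genes: Tcf7 had a log2 fold change of 0.60 in the libraries numbered 100 or more, and Cd8a, with -4.37 to 0.10 when 1 library was left out, was above 0 without NTG Sham replicate 5. Of 197 genes chosen by rule that passed over all libraries and were tested in the NTG libraries alone, 70 passed there in the same direction and 127 did not. The rising or falling count moved by over 1.5 times in 20 of 49 gene lists without NTG Sham replicate 5, in 25 with the number in the library name as a term, in 16 by voom with a weight per group and in 46 in the NTG libraries alone. Genes near 3 counts a library, such as Vgll2 in Sham hearts, have imprecise folds.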

Other observations

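Some of the steepest rises were uneven over the TAC hearts. They are named here after their values were seen, and none passed with the 15 NTG libraries alone. Sprr1a, a cornified envelope protein also made by stressed muscle, had 0.187 to 248.7 CPM with a median of 6.94 in TAC hearts and 0, 0.0957, 0.419, 0.108 and 0.916 CPM in Sham hearts (log2 fold change 7.06 ± 1.78, adjusted p = 0.0106 by edgeR's quasi-likelihood test, 0.0925 in NTG alone). Nmrk2, a muscle kinase that makes NAD precursors from nicotinamide riboside, had 5.34 to 528 CPM with a median of 21.2 in TAC hearts and 8.18, 11.01, 5.23, 5.95 and 5.19 CPM in Sham hearts (log2 fold change 3.75 ± 0.98, adjusted p = 0.012, 0.109 in NTG alone). TAC replicate 2 was highest for Nmrk2 and TAC replicate 10 for Sprr1a, and TAC replicate 1 was lowest for both.

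Ecrg4, a secreted precursor peptide, had 0 counts in all 5 Sham hearts and in TAC replicate 4, and 0.187 to 5.27 CPM in the other 9 TAC hearts (adjusted p = 0.00483, 0.0847 in NTG alone). Serpinb1c, of the clade B serpins, had 0.281 to 13.8 CPM with a median of 2.80 in TAC hearts and 0.0998, 0.287, 0.105, 0 and 0.102 CPM in Sham hearts (log2 fold change 5.07 ± 1.01, adjusted p = 0.00262, 0.0521 in NTG alone). TAC replicate 1 overlapped the Sham hearts for Serpinb1c, and the other 9 did not. Synpo2l, an actin-binding protein of the Z-disc, had 250.3 to 1715 CPM with a median of 439.8 in TAC hearts and 272, 267, 218, 235 and 194 CPM in Sham hearts (log2 fold change 1.59 ± 0.39, adjusted p = 0.00863, 0.0936 in NTG alone), so TAC replicates 1 and 7 lay within the Sham range.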
